A study of Mus musculus with 2 samples.

Results

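The genes described here encode the proteins of the cytosolic ribosome and the factors that drive translation, measured in stomach cells sorted by the brightness of a green fluorescent protein (GFP). They were chosen by name, as every gene whose array name begins with Rpl, Rps or Rplp and a digit, with Rpsa, or with Eif or Eef and a digit, leaving out the Rps6k and Eif2ak kinases. The choice gave 144 genes, read by 278 probes, among 27827 gene names on the array: 51 of the large subunit, 33 of the small subunit, 52 named as initiation factors and 8 named as elongation factors. The classes follow the names, so they hold some copies, binding proteins and other genes that are not subunits or factors. Of these 144 genes 130 were measured, 126 of them with GFPhigh and GFPlow each well above background on both arrays. Among the other 14, the spots of Rpl26 and Rps27 were marked as outliers by the scanner software. Eef1a2, Eif2b3, Eif2c1, Eif2c3, Eif2c4, Eif2s3y, Eif4e3, Eif4enif1, Eif5a2, Rpl39l, Rpl3l and Rps13 were not well above background on both arrays in the brighter population.

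The cells came from the pylorus, the outlet of the stomach, of mice with the Lgr5-EGFP-ires-CreERT2 knock-in, where the Lgr5 promoter drives GFP and a tamoxifen-inducible Cre; no agent, age or further allele is given in the labels. Tissue of 20 mice was pooled, digested to single cells and sorted into GFPhigh and GFPlow cells, so that both populations carry the same knock-in and differ in GFP brightness. RNA of both, 150 ng per labelling, was hybridised together on 2 Agilent arrays with the dyes exchanged, Cy3 marking GFPhigh on array 1 and Cy5 marking it on array 2. As the labels name 1 RNA sample for each population, these are repeat readings of a single replicate, no test between the populations could be made, and the SD given with each mean of the 2 arrays is technical. Values are log2 ratios of GFPhigh over GFPlow after within-array normalization, and a negative value is lower in GFPhigh. The ratio compares equal masses of RNA, so fewer cells of a type and less of an mRNA per cell cannot be told apart.

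Of 43379 gene spots, 18.7% to 31.7% were well above background in a channel, none was saturated, and 7834 genes were measured in all, with a median ratio of -0.06 (-0.03 on array 1 and -0.09 on array 2). Lgr5 itself, the gene that marks the sort, stood at 2.33 and 2.24 (mean 2.28 ± 0.07). The epithelial genes Epcam, Cdh1, Krt8 and Krt18 were measured on both arrays, while none of 5 immune, 3 endothelial and 3 squamous marker genes was. Of the stromal and muscle list 2 of 6 genes were measured, Col1a2 and Acta2, and of the red cell list 1 of 3, Hbb-b1.

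A ribosome is built from a small subunit, which reads the mRNA, and a large subunit, which joins the amino acids. Initiation factors bring the small subunit to the capped end of an mRNA, scan to the start codon and let the large subunit join, and elongation factors then deliver transfer RNAs and move the ribosome along. Ribosomal protein mRNAs are among the most abundant of any cell and are known to be translated in step with growth signals through a run of pyrimidines at their start, and dividing cells make many ribosomes. Many ribosomal protein genes have near-identical processed pseudogenes or copies, and an array probe cannot tell those transcripts from the gene's own, so each ribosomal protein value is uncertain to that extent.

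Most translation genes had a mean ratio below 0, and the shifts were small. The median over the 130 measured genes was -0.36, against -0.06 over all 7834 genes. A mean below 0 was found for 115 of the 130, and for 4361 of all 7834 genes. The medians of the classes lay close together: -0.30 for 48 large subunit proteins, -0.39 for 31 small subunit proteins, -0.39 for 44 initiation factors and -0.36 for 7 elongation factors. Over core subunits and factors alone they were -0.31 (n = 45), -0.39 (n = 29), -0.43 (n = 34) and -0.41 (n = 6). The last of these still counts Eef1e1, a protein of the aminoacyl-tRNA synthetase complex. At a threshold of 2-fold on both arrays, 1 member, Rpl14, was higher in GFPlow, which is 0.769% of the measured members against 2.71% of all genes; no member was 2-fold higher in GFPhigh, against 1.79% of all genes. At 1.5-fold on both arrays 10 members were higher in GFPlow, 7.69% of them against 7.45% of all genes, a share close to the background. None was 1.5-fold higher in GFPhigh, where 5.59% of all genes were. Counted at 2-fold on other scales, members higher in GFPlow were 1 with the scanner software's processed signals (6.52% of all genes), 2 with median centring (2.6% of all genes) and 45 of 131 with spike-in centring (19.9% of all genes). None was 2-fold higher in GFPhigh on these scales, against 4.48% of all genes with the processed signals. With median and spike-in centring 0.122% and 0.256% of all genes were, so a count of 0 says little there. Without background correction 0 members passed in GFPlow, against 1.85% of all genes, and 0 in GFPhigh, against 1.2%. On array 1 alone, 11 of 132 members were 2-fold higher in GFPlow (4.2% of all genes) and 0 in GFPhigh (3.73%). On array 2 alone, 5 of 134 were higher in GFPlow (5.49%) and 4 in GFPhigh (4.07%). By sign alone, 62 members (47.7%) were lower in GFPhigh on both arrays against 36.5% of all genes, and 7 (5.38%) were higher on both against 28.2%.

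**Figure D1:**
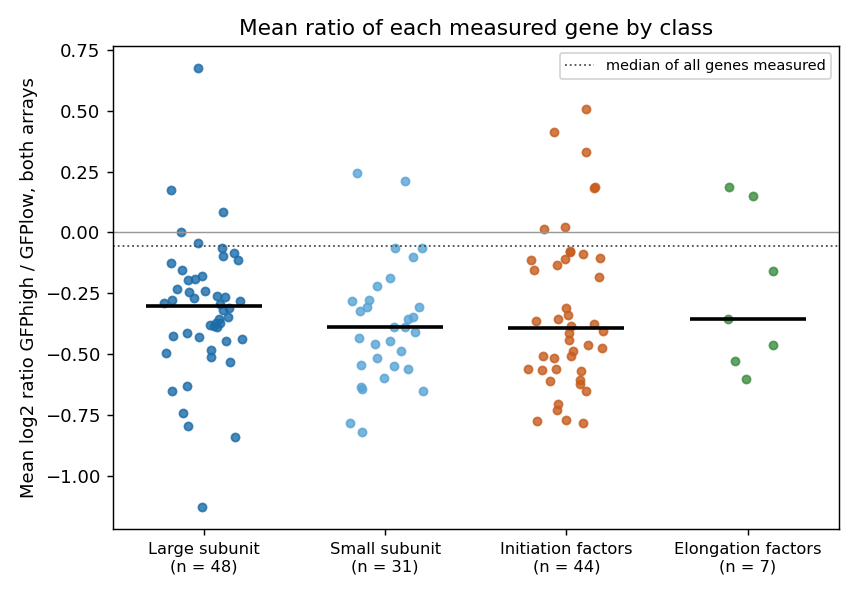
Mean log2 ratio of GFPhigh over GFPlow over both arrays for each measured gene (points), by class, with the class median as a black bar and the median of all 7834 genes as a dotted line at -0.06. Class medians sit between -0.39 and -0.30, Rpl14 is lowest at -1.13 and Rpl21 highest at 0.68.

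The classes differed in how the arrays compared. For the genes with ribosomal protein names, the arrays gave different pictures on the loess scale: their median was -0.77 on array 1 and 0.08 on array 2, and the SD of these array medians, 0.60, is larger than the mean shift of -0.35. On array 1, 76 of 79 were below 0, against 52.3% of all genes, and on array 2, 33 were below and 46 above, against 55.9% of all genes below. In all, 32 (40.5%) were lower on both arrays, 2 (2.53%) were higher on both and 45 had opposite signs. Of these 45, 44 were below 0 on array 1 and above 0 on array 2. Over all 7834 genes 36.5% were lower on both, 28.2% were higher on both and 2768 had opposite signs. The share lower on both arrays was thus close to that of all genes. The initiation factors gave medians of -0.34 and -0.47, with 26 of 44 (59.1%) lower on both arrays, 4 (9.09%) higher on both and 14 of opposite sign. On this scale the median of the initiation factors was thus below 0 on both arrays, and that of the ribosomal proteins on array 1.

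**Figure D2:**
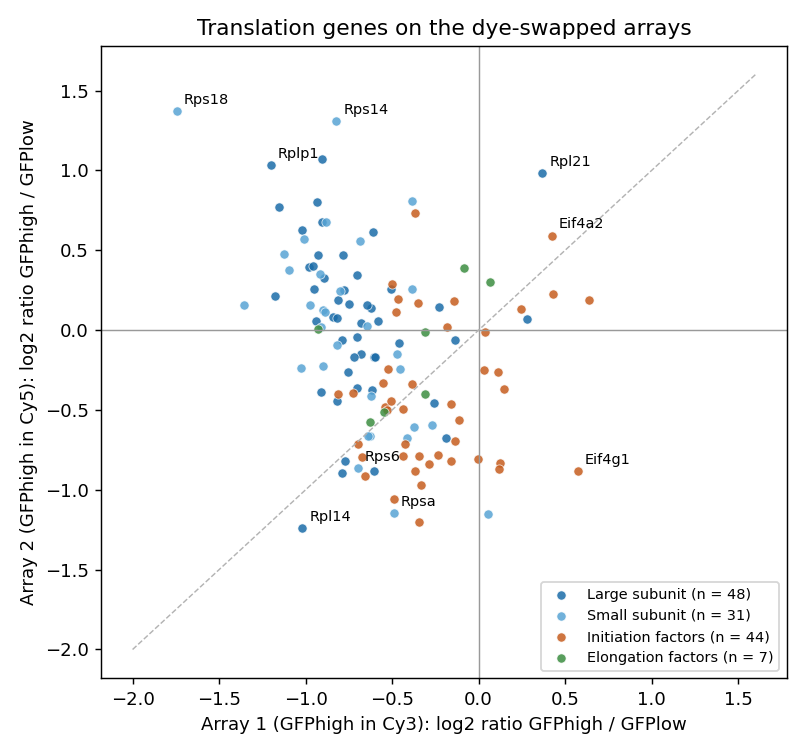
Log2 ratio of GFPhigh over GFPlow on array 1 (x axis) against array 2 (y axis) for each measured gene, coloured by class, with the line of equal values dashed. Ribosomal proteins fill the upper left, with Rps18 at -1.74 and 1.37, while most initiation factors lie in the lower left, and Rpl14 is below -1 on both arrays.

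The gap between the arrays followed spot brightness in ribosomal proteins, and in other genes it appeared among the brightest spots. Ribosomal protein probes were bright, with a median average log2 signal of 14.1 against 8.44 over all genes. Among the 24 ribosomal proteins with an average log2 signal of 15 or more, the median was -0.90 on array 1 and 0.30 on array 2; the 30 other genes as bright stood at -0.43 and 1.07. Between 13 and 15, 34 ribosomal proteins gave -0.71 and 0.03, and 138 other genes -0.15 and 0.33. Between 9 and 11, where both dyes gave like values, 8 ribosomal proteins had medians of -0.69 on array 1 and -0.85 on array 2, and 2070 other genes 0.05 and -0.08. So in each of these ranges, and on each array, the ribosomal proteins lay below other genes of the same brightness. Over the 79 ribosomal proteins, whose probes share the same arrays, signal and the difference of array 1 minus array 2 had a Pearson coefficient of -0.72 (Spearman -0.73), given as a description. Over all 7704 other genes it was -0.13 (Spearman -0.0007), and over 44 initiation factors -0.09 (Spearman -0.12). The GC content of the ribosomal protein probes, 35% to 75%, had a coefficient of -0.08 with that difference.

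**Figure D3:**
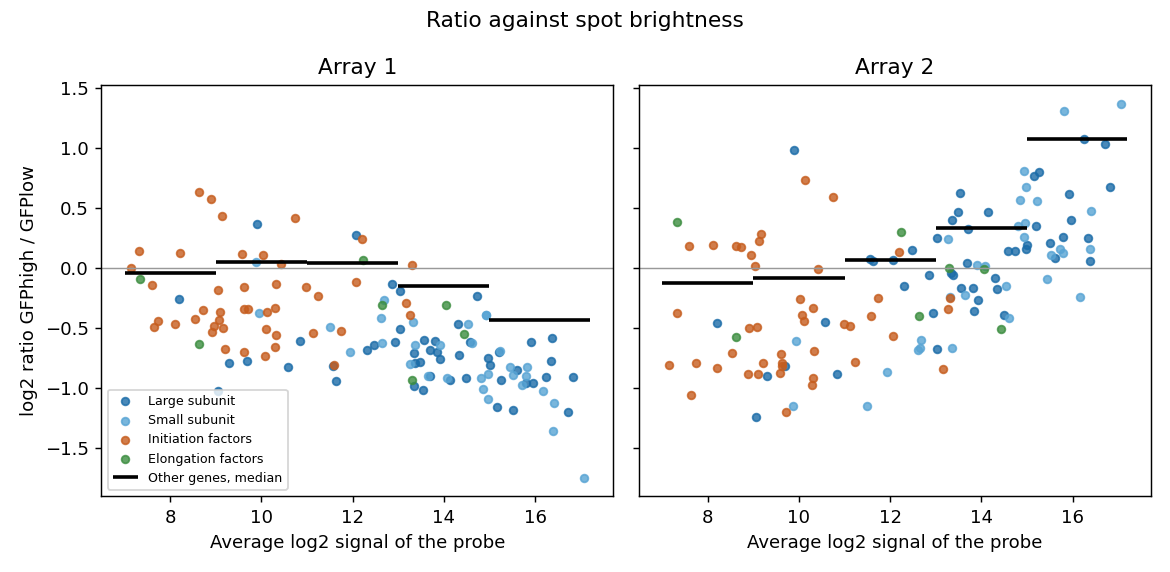
Log2 ratio of GFPhigh over GFPlow against the probe's average log2 signal, for array 1 (left) and array 2 (right), with members as points coloured by class and the median of all other genes in each signal range as black bars. On array 1 the bright ribosomal proteins have a median of -0.90 and on array 2 of 0.30, and the bars of other bright genes lie on the same sides of 0, to -0.43 and 1.07.

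The scanner software's own processed signals, which carry a different dye normalization, gave closer arrays. With them the ribosomal protein medians were -0.26 on array 1 and -0.20 on array 2, and 55 of 79 were lower on both arrays, 8 higher on both and 16 of opposite sign, against 40.8% of all genes lower on both and 33.9% higher on both. Rps18 then read -0.35 and -0.10. Of the 62 members lower on both arrays, 59 were so with the processed signals too, and of the 7 higher on both, 5 were. Both scales come from the same spots. The share of all genes that kept their direction was not counted, so these counts are no result particular to the members.

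Among the large subunit proteins the lowest ratios belonged to dimmer probes whose arrays matched. Rpl14 had log2 levels in GFPhigh of 8.54 on array 1 and 8.43 on array 2, and in GFPlow of 9.56 and 9.67. Both GFPhigh levels lie below both GFPlow levels, a pattern whose share over all genes was not counted. Its ratios were -1.02 and -1.24, a mean of -1.13 ± 0.16 or 2.19-fold, read by a single probe at chr9:120483689-120483748 of mm9. Rpl31 gave -0.79 and -0.89 (-0.84 ± 0.08), and Rpl4, which lines the exit tunnel of the growing chain, gave -0.77 and -0.82 (-0.80 ± 0.03). Rpl10a, part of the mobile L1 stalk, gave -0.60 and -0.88 (-0.74 ± 0.19). These are the 4 large subunit proteins past 1.5-fold on both arrays.

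At the other end stood Rpl21, at 0.37 and 0.98 (0.68 ± 0.43), whose kept probe was designed on a cDNA clone and not on the RefSeq transcript. Rpl36al, a close copy of Rpl36a, gave 0.28 and 0.07 (0.18 ± 0.15), while Rpl36a itself gave -0.46 and -0.08 (-0.27 ± 0.27); the copy's ratio was above its parent's on both arrays. Both of these higher values depended on the centring: with spike-in centring Rpl21 read -0.11 and Rpl36al -0.61, and with median centring Rpl36al read -0.67 and Rpl21 0.01. Rpl41, the smallest ribosomal protein, was next in rank at a mean of 0.09 ± 1.40, from -0.90 and 1.07, with opposite signs; with the processed signals it was above 0 on both arrays, at 0.04 and 0.53.

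Other copies were measured beside their parents. Rpl22l1, the paralogue that can replace Rpl22 in the ribosome, gave -0.13 and -0.06 (-0.10 ± 0.05), and Rpl22 gave -0.75 and -0.27 (-0.51 ± 0.35). Rpl7l1 gave -0.26 and -0.46 (-0.36 ± 0.14), and Rpl7 gave -0.70 and -0.36 (-0.53 ± 0.24). The ratio of the copy was nearer 0 than that of the parent on both arrays for Rpl22l1 and on array 1 for Rpl7l1.

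The stalk proteins, which recruit elongation factors to the large subunit, all had opposite signs on the loess scale. Rplp0 read -0.78 and 0.25 (-0.26 ± 0.73), Rplp1 -1.20 and 1.03 (-0.08 ± 1.58) and Rplp2 -0.96 and 0.40 (-0.28 ± 0.96). The same held for Rpl5 and Rpl11, which bind the small ribosomal RNA of the large subunit and can also restrain Mdm2, an inhibitor of p53. Rpl5 read -0.93 and 0.81 (-0.06 ± 1.23) and Rpl11 -0.95 and 0.26 (-0.35 ± 0.86). With the processed signals, Rpl11 (-0.26 and -0.08), Rplp2 (-0.09 and -0.08) and Rplp0 (-0.0022 and -0.06) were lower on both arrays, and Rpl5 (-0.22 and 0.29) and Rplp1 (-0.22 and 0.16) kept opposite signs. On the brightest probes, the direction of these 5 mRNAs therefore depended on the dye normalization or differed between the arrays. It also differed between probes of Rpl11 and Rplp0 on the loess scale. A dimmer Rpl11 probe read -0.18 and -0.91, and dimmer Rplp0 probes read -0.77 and 0.06, and -0.59 and -0.26.

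In the small subunit the lowest value was that of Rpsa, which is also known as a laminin receptor. Its log2 levels were 11.30 and 10.88 in GFPhigh and 11.79 and 12.03 in GFPlow, giving ratios of -0.49 and -1.15 (-0.82 ± 0.46). Rps6, the subunit protein phosphorylated by S6 kinase, had levels of 11.67 and 11.42 in GFPhigh and 12.37 and 12.29 in GFPlow, and ratios of -0.70 and -0.86 (-0.78 ± 0.12). For both genes the GFPhigh levels lay below the GFPlow levels, in repeat readings of the same RNA. The share of all genes for which this held was not counted, and 36.5% of all genes were lower in GFPhigh on both arrays. Rps3a, now named Rps3a1, gave -0.64 and -0.66 (-0.65 ± 0.02), and Rps26 gave -0.63 and -0.66 (-0.64 ± 0.03). Rps6, Rps3a and Rps26 were the small subunit proteins past 1.5-fold on both arrays.

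On the loess scale 0 small subunit proteins were higher on both arrays. The highest means came from Rps14 (-0.82 and 1.31, 0.24 ± 1.51), Rps21 (-0.39 and 0.81, 0.21 ± 0.85) and Rps28 (-0.69 and 0.56, -0.06 ± 0.88), each with arrays of opposite sign. With the processed signals these were higher on both arrays, Rps14 at 0.27 and 0.24, Rps21 at 0.21 and 0.21 and Rps28 at 0.0033 and 0.21, as was Rps29 at 0.11 and 0.17. The Rps21 values are those of its brightest probe. Its other kept probes read 0.11 and -0.53 (mean -0.21) and 0.06 and -0.44 (mean -0.19) on the loess scale. Rps18 showed the widest gap of all members: its log2 levels were 16.1 on array 1 and 17.8 on array 2 in GFPhigh, and 17.9 and 16.5 in GFPlow, so the populations changed places with the dye. Its ratios of -1.74 and 1.37 average -0.19 ± 2.20, and another Rps18 probe gave -1.19 and 0.60. Rps12 read -1.36 and 0.16 (-0.60 ± 1.07).

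Rps27l, the copy of Rps27 known as a p53 target, gave -0.27 and -0.60 (-0.43 ± 0.23), and its parent was not measured. Rps19bp1, a binding partner of Rps19 and not a ribosomal protein, gave 0.05 and -1.15 (-0.55 ± 0.85). It was the one gene of the 79 with ribosomal protein names above 0 on array 1 and below 0 on array 2.

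The probes behind the readings that matched and those that were opposed on the loess scale are shown to let their sequences be compared. Each is 60 bases long, in the sense of the mRNA, at mm9 coordinates, and capitals mark a start or stop codon where the probe reaches it.
Rpl4, chr9:64022737-64022796: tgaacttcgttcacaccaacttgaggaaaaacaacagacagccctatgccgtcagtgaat
Rpl10a, chr17:28466425-28467486: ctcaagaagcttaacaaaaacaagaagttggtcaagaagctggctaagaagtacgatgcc
Rps6, chr4:86501886-86502077: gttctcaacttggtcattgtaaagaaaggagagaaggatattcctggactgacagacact
Rpsa, chr9:120037589-120037648: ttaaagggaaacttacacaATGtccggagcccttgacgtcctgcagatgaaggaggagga
Rps18, chr17:34088984-34089043: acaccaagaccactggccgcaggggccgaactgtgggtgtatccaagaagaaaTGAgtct
Rps12, chr10:23505016-23505075: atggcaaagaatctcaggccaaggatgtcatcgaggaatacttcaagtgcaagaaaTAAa
Rpl32, chr6:115757046-115757105: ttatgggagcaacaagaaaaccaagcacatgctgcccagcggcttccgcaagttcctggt
The probes of Rpl4, Rpl10a, Rps6 and Rpsa belong to genes lower on both arrays, and those of Rps18, Rps12 and Rpl32 to genes with opposite signs on that scale (Rpl32 read -1.18 and 0.21). With the processed signals these too were lower on both arrays, Rps12 at -0.50 and -0.31 and Rpl32 at -0.54 and -0.20, beside Rps18 as given above. The Rps6 and Rpl10a probes span more genomic bases than their length, as probes across an exon junction do, the Rpsa probe holds the start codon, and the Rps18 and Rps12 probes reach the stop codon.

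The run of pyrimidines that marks these mRNAs was looked for at the annotated start of each gene, as a C followed by 4 bases that are each C or T, on the gene's own strand. Of 64 ribosomal protein genes found in the RefSeq promoter table (GRCm38.p6), 13 (20.3%) had these letters exactly at the start, 7 of 39 in the large subunit and 6 of 25 in the small. Initiation factors had them in 2 of 41 and elongation factors in 0 of 6, against 3.01% of all 27025 genes of that table. The annotated starts can lie some bases from the true ones, so the share is a description. The following show 40 bases before and 20 from the start, with the pyrimidine run in capitals.
Rpl14, chr9:120571477-120571536, plus strand: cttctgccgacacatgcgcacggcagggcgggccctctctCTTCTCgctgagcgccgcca
Rps6, chr4:86857348-86857407, minus strand: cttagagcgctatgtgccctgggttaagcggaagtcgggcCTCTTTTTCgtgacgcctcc
Rps18, chr17:33955646-33955705, minus strand: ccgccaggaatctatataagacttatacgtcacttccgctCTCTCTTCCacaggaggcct
Rps21, chr2:180257339-180257398, plus strand: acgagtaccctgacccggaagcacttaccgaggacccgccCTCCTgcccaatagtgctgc
Rpl38, chr11:114668540-114668599, plus strand: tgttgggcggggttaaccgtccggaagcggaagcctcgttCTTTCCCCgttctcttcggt
These genes span the range of ratios, from Rpl14 at -1.13 to Rps21 at 0.21, with Rpl38 at 0.00 (-0.61 and 0.62). Ribosomal proteins with the letters had a median ratio of -0.28, and the 47 measured and matched without them -0.38.

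The largest group among the initiation factors was eIF3, the scaffold that holds the small subunit open for the mRNA, and its subunits were mostly lower in GFPhigh. All 13 were measured and all had a mean below 0, from -0.62 for Eif3a to -0.11 for Eif3h, with a median of -0.44 (-0.34 on array 1 and -0.49 on array 2). On both arrays 11 of 13 were lower in GFPhigh, and 12 of 13 with the processed signals, against 36.5% and 40.8% of all genes. The exceptions were Eif3h (0.03 and -0.25, or 0.21 and -0.16 with the processed signals) and Eif3k (0.12 and -0.83). Close readings on the arrays came, on the loess scale, from Eif3d (-0.54 and -0.48), Eif3g (-0.39 and -0.34) and Eif3j, now Eif3j1 (-0.44 and -0.49). With the processed signals they were further apart, at -0.67 and -0.11, -0.06 and -0.42, and -0.54 and -0.33. Probes of Eif3c did not give 1 value: the brightest read -0.34, another -0.30, and the remaining pair 0.24 and 0.65. The pair above 0 lies at chr7:133706143-133706202 and chr7:133707950-133708009, at higher mm9 coordinates than the others, which for a gene on the minus strand is towards its start.

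The 3 subunits of eIF2 that were measured, which carry the initiator transfer RNA, were lower on both arrays. Eif2s1 read -0.43 and -0.71, Eif2s2 -0.73 and -0.39 and Eif2s3x -0.16 and -0.82, with a median mean of -0.56. Their exchange factor eIF2B, which recharges eIF2 with GTP, was uneven. Eif2b1, its alpha subunit, had the lowest mean of all initiation factors, at -0.66 and -0.91 (-0.78 ± 0.18), from log2 levels of 9.91 and 9.90 in GFPhigh and 10.6 and 10.8 in GFPlow. Eif2b2 (0.04 and -0.01), Eif2b4 (0.11 and -0.26) and Eif2b5 (-0.35 and 0.17) lay around 0.

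**Figure D4:**
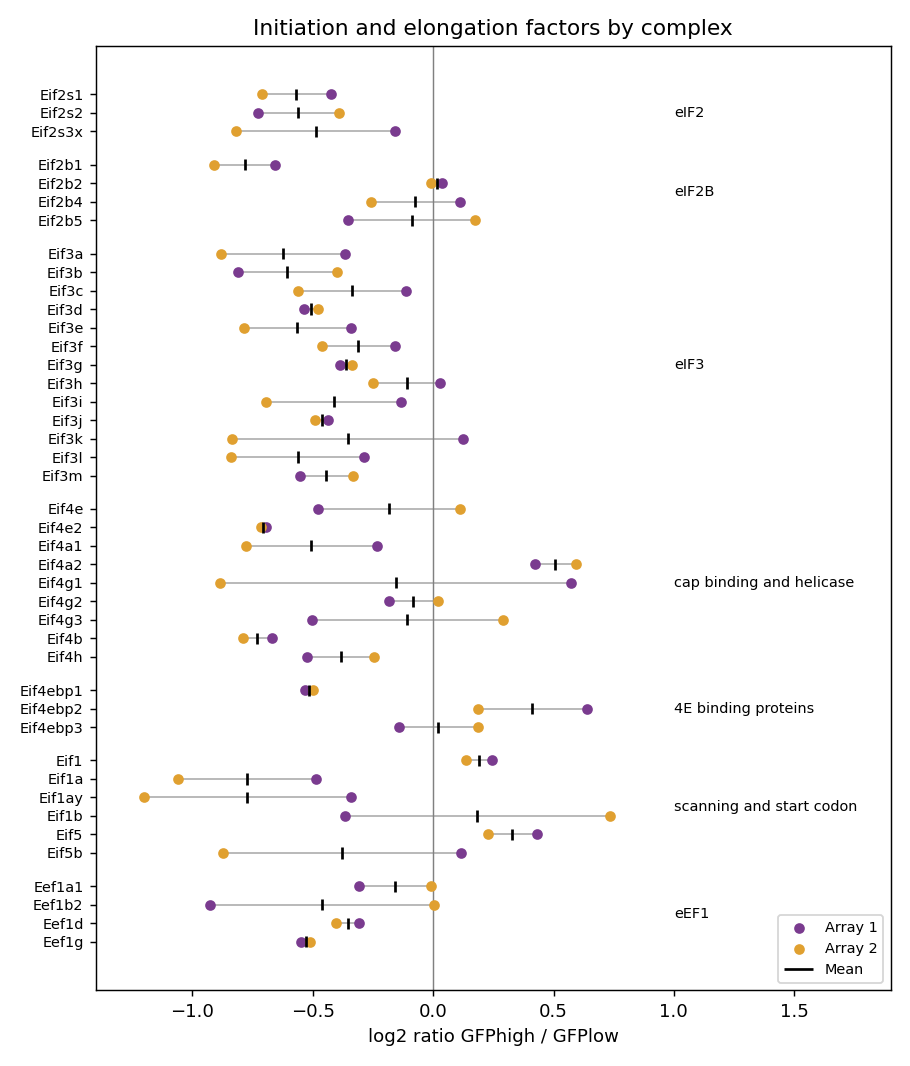
Log2 ratio of GFPhigh over GFPlow on array 1 (purple) and array 2 (yellow) with their mean (black tick), for the measured factors of each named complex. Of the 13 eIF3 subunits 11 are below 0 on both arrays, the eIF2 subunits all are, and Eif4a2, Eif4ebp2, Eif1 and Eif5 are above 0 on both, though not with spike-in centring. With the processed signals Eif5 had opposite signs.

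The factors that act at the mRNA cap split. Eif4b, which stimulates the helicase, gave -0.67 and -0.79 (-0.73 ± 0.09), and Eif4e2, a cap-binding relative known as a repressor, gave -0.70 and -0.72 (-0.71 ± 0.01). Both passed 1.5-fold on both arrays. The helicase itself has a pair of closely related forms with opposite readings. Eif4a1 was lower in GFPhigh on both arrays, at -0.23 and -0.78 (-0.51 ± 0.39). Eif4a2 was higher on both, with log2 levels of 10.95 and 11.03 in GFPhigh and 10.53 and 10.44 in GFPlow, ratios of 0.42 and 0.59 and a mean of 0.51 ± 0.12. Another probe of Eif4a2 read 0.44 and -0.03. The place of Eif4a2 above 0 held with the processed signals (0.47) and not with median centring (-0.24) or spike-in centring (-0.28), while the ratio of Eif4a1 was below that of Eif4a2 on both arrays.

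The cap-binding protein Eif4e gave -0.48 and 0.11 (-0.18 ± 0.42), and the scaffold Eif4g1 gave 0.57 and -0.88 (-0.16 ± 1.03), readings without a shared direction. Eif4g2 (-0.18 and 0.02) and Eif4g3 (-0.50 and 0.29) were near 0 in the mean. Eif4h gave -0.52 and -0.24 (-0.38 ± 0.20). The proteins that hold Eif4e inactive until growth signals release it differed among themselves. Eif4ebp1 read -0.53 and -0.50 (-0.52 ± 0.02), Eif4ebp2 read 0.64 and 0.19 (0.41 ± 0.32), and Eif4ebp3 read -0.14 and 0.18 (0.02 ± 0.23). The value of Eif4ebp2 was 0.62 with the processed signals and was -0.11 with median centring and -0.37 with spike-in centring. The arrays were less close for Eif4ebp1 with the processed signals, at -0.37 and -1.21.

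Factors of scanning and start codon choice also split. Eif1a gave -0.49 and -1.06 (-0.77 ± 0.41), with GFPhigh above background on a single array, and the probe named Eif1ay, which by its current symbol is Eif1ax, gave -0.34 and -1.20 (-0.77 ± 0.61). Eif5, which makes eIF2 hydrolyse its GTP at the start codon, read 0.43 and 0.23 (0.33 ± 0.14), and Eif1, which guards start codon choice, 0.24 and 0.13 (0.19 ± 0.08). Eif5 was below 0 with median (-0.29) and spike-in centring (-0.45). With the processed signals it read 0.76 and -0.09, so its direction was not settled. Eif1b, a copy of Eif1, read -0.37 and 0.73 (0.18 ± 0.78), and Eif1ad, a related protein, -0.44 and -0.79 (-0.61 ± 0.25). Eif5b, the factor for subunit joining, read 0.12 and -0.87 (-0.38 ± 0.70). Eif6, which keeps free large subunits apart from small ones, read -0.34 and -0.97 (-0.65 ± 0.45). Eif5a, which helps the ribosome through difficult stretches, read -0.51 and -0.44 (-0.47 ± 0.05), or -0.27 and -1.02 with the processed signals.

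The names Eif2c1 to Eif2c4 stand for the Argonaute genes Ago1 to Ago4, which act with microRNAs and are not translation factors. Of these Eif2c2 alone was measured, at 0.14 and -0.37 (-0.11 ± 0.36).

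In elongation, 3 of 4 subunits of the eEF1 complex, which delivers transfer RNAs, were lower in GFPhigh on both arrays on the loess scale. Eef1g, a structural subunit, read -0.55 and -0.51 (-0.53 ± 0.03), from log2 levels of 14.3 and 14.1 in GFPhigh and 14.8 and 14.6 in GFPlow. Eef1d read -0.31 and -0.40 (-0.36 ± 0.07), Eef1a1, the GTPase that binds the transfer RNAs, -0.31 and -0.01 (-0.16 ± 0.21), and Eef1b2, an exchange factor, -0.93 and 0.01 (-0.46 ± 0.66). With the processed signals Eef1g read -0.14 and -0.50, Eef1d -0.28 and -0.12 and Eef1b2 -0.47 and -0.31. Eef1a1 read 0.08 and -0.16 there, so its direction was not settled. Eef1e1, a protein of the aminoacyl-tRNA synthetase complex, was lowest of the class at -0.63 and -0.58 (-0.60 ± 0.04). Eef2, which moves the ribosome along, read 0.07 and 0.30 (0.19 ± 0.17) on its brightest probe and was -0.69 with median centring and -0.60 with spike-in centring. Its other probes read -0.27 ± 0.78 and -0.07 ± 0.13, and the processed signals gave 0.29 and -0.26, so its direction was not settled. Its inhibitory kinase Eef2k read -0.09 and 0.39 (0.15 ± 0.34).

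Where a gene had several kept probes, their means over both arrays were mostly close. Of 54 such genes 48 had means within 0.5 of each other and none differed by more than 1. Rpl23 was among the exceptions, with a bright probe at -0.28 ± 0.87 and a dimmer one at -1.07 ± 1.11. Opposed readings cancel in such means, so probes with close means can differ on each array. The Rpl10 probes read -0.51 and 0.25, and 0.24 and -0.47, with means of -0.13 and -0.12. How closely probes matched on each array was not counted.

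Taken over both arrays, the class medians were below that of all genes under every normalization tried, and the distance depended on it. Relative to the median of all genes, the large subunit stood at -0.25, the small subunit at -0.33, initiation factors at -0.34 and elongation factors at -0.30. With the processed signals these became -0.15, -0.18, -0.33 and -0.14. Centring each array on its median without a loess curve moved the median of all genes by -0.44, to -0.49, and placed the classes at -0.82, -0.95, -0.58 and -0.67 relative to it. Spike-in centring subtracts the same constant from every loess ratio on both arrays. It moved the median of all genes by -0.76, to -0.81, and left the classes at -0.27, -0.36, -0.35 and -0.33. A constant can change these distances only through the probes kept, so they are no separate support. The 7 members higher on both arrays (Eef2, Eif1, Eif5, Eif4ebp2, Eif4a2, Rpl36al and Rpl21) were above the median of all genes in 7 of 7 cases with spike-in centring and in 4 of 7 with median centring, but above 0 in 0 and in 1. The 7 of 7 likewise follows largely from the loess ratios.

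**Figure D5:**
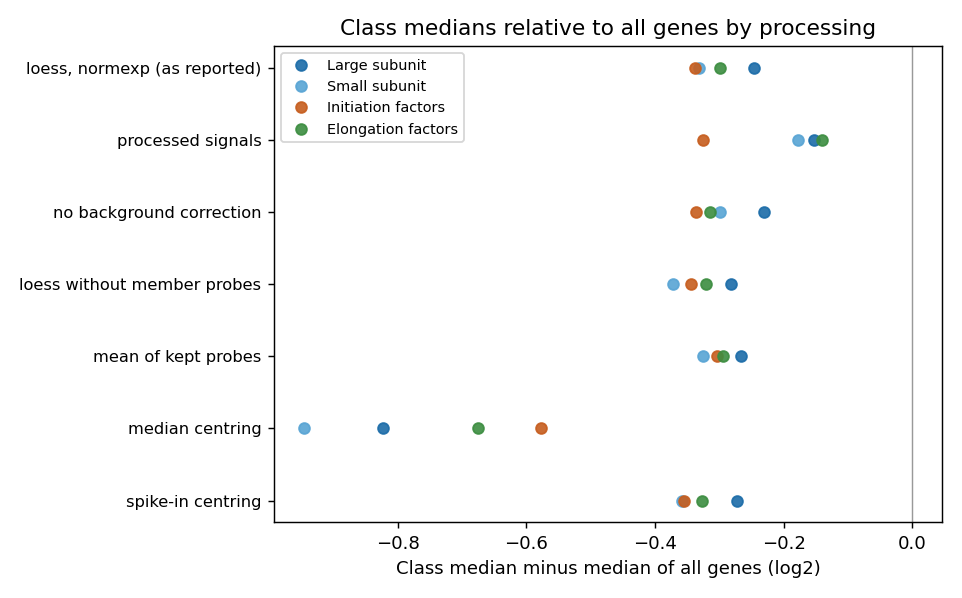
Median log2 ratio of each class minus the median of all genes measured (x axis) under each way of processing the arrays (y axis), with classes as coloured points. Every point lies left of 0; the values as reported run from -0.34 to -0.25, and with median centring from -0.95 to -0.58.

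Other cellular machines also had medians below 0. Mitochondrial ribosomal proteins, which work in a separate translation system, had a median of -0.29 over 73 of 75 genes (-0.26 on array 1 and -0.39 on array 2), with 44 lower on both arrays and 4 higher. Proteasome subunits, which degrade proteins, had a median of -0.22 over 34 of 40 (-0.09 and -0.34), with 19 lower on both arrays and 5 higher. Lower on both arrays were 60.3% of the mitochondrial list and 55.9% of the proteasome list, against 36.5% of all genes. Higher on both were 5.48% and 14.7%, against 28.2%. How these lists compared with the cytosolic translation genes depended on the scaling. Relative to the median of all genes, they stood at -0.23 and -0.17 on the loess scale, at -0.34 and -0.18 with the processed signals and at -0.43 and -0.46 with median centring, where the ribosomal subunits were at -0.82 and -0.95. No test of the difference could be made.

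Genes that work with the translation machinery were also mostly below 0, with a median of -0.41 over 23 of 29. Of these 23, 13 (56.5%) were lower on both arrays and 2 (8.7%) higher, against 36.5% and 28.2% of all genes. Serbp1, a protein of idle ribosomes, gave -0.92 and -0.90 (-0.91 ± 0.01). Btf3, part of the complex that shields nascent chains, gave -0.60 and -0.84 (-0.72 ± 0.17). Larp1, which binds mRNAs that start with a pyrimidine run, gave -0.39 and -1.15 (-0.77 ± 0.53), and Paip2, an inhibitor of poly(A)-binding protein, -0.08 and 1.45 (0.68 ± 1.08). Cytosolic aminoacyl-tRNA synthetases had a median of -0.24 over 18 of 20, 8 (44.4%) lower on both arrays and 1 (5.56%) higher. Hars (-0.61 ± 0.21), Iars (-0.53 ± 0.14) and Kars (-0.50 ± 0.38) were lowest by size, and Wars was the highest at 0.49 ± 0.26.

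The kinases and regulators that act on translation had a median near 0. It was 0.07 over 15 of 24 genes of the mTORC1, S6 kinase and eIF2 kinase list. Of these 15, 3 (20%) were lower on both arrays and 6 (40%) higher, against 36.5% and 28.2% of all genes. Eif2ak3, the eIF2 kinase of the endoplasmic reticulum stress response also called PERK, gave 1.26 and 0.51 (0.89 ± 0.53). Ddit4, an inhibitor of mTORC1, gave 0.65 and 0.59 (0.62 ± 0.05). Rps6ka1 gave -0.11 and 1.06 (0.48 ± 0.83) and Rps6ka3, a related kinase, -0.31 and -0.64 (-0.47 ± 0.23).

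Markers of several cell states differed between the populations in the same samples. All 4 genes of dividing cells were lower in GFPhigh, with a median of -1.84; Mki67 stood at -2.28 ± 0.20, Birc5 at -2.26 ± 0.09, Mcm5 at -1.43 ± 0.10 and Top2a at -0.95 ± 0.15. The log2 of their summed levels was 10.3 and 10.4 in GFPhigh and 12.4 and 12.4 in GFPlow. Here and below, levels were summed before the log2 was taken, so the brightest genes of a list weigh most. All 4 surface mucous genes were lower too, with a median of -2.76 and summed levels of 14.1 and 14.7 in GFPhigh against 17.9 and 17.3 in GFPlow. All 5 enteroendocrine genes were lower, with a median of -1.68 and sums of 11.5 and 11.8 against 14.1 and 14.0. All 5 gland mucous and chief cell genes were higher, with a median of 2.73 and sums of 18.5 and 19.2 against 17.0 and 16.1. The part of these differences in the ratios of the translation genes was not tested.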

How the data were processed

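The authors deposited scanner output of Agilent Feature Extraction (10.5.1.1 per the file headers, 9.5.3 per the submitters' processing notes): mean spot intensity and median local background intensity per channel, and processed intensities that were background-subtracted and dye-normalized. The deposited log10 ratio, also given in a value table of the series, derives from the processed signals. Probe coordinates are on mm9, per the file headers.

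From these, log2 ratios were computed with limma 3.58.1 in R 4.3.3 (normexp with offset 50, loess within each array, control and outlier spots at weight 0) and signed as GFPhigh over GFPlow from the labelled dyes. Normexp and the offset pull dim ratios towards 0. For the log2 levels of each population, the average signals were also quantile-normalized between the arrays. Kept probes had their brighter population well above background on each array, and a gene took its brightest kept probe. Spots were summarised with Python 3.11.15 and pandas 2.3.3, and the steps were checked on simulated arrays. With 1 replicate no p-value was computed, and the number of arrays limits the precision.

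Members and lists were chosen with earlier results of these data known. Named were the 3 highest and 3 lowest means of each class among genes above background in both populations, members past 2-fold, copies and associated proteins, and up to 4 genes of each related list; members of the named complexes and others past 1.5-fold were added after their values were seen. Current symbols were taken from RefSeq for 144 members, of which 7 differ from the array's names. Alternatives covered background correction, signals, centring, dim-probe filter, probe rule, threshold, core subunits alone, the value table and each array alone.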

Additional observations from a re-analysis of the deposited data

How the results depend on the processing

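No paired analysis was possible because the arrays form a single group. Taken alone, the arrays gave medians of -0.76 to 0.14 for large subunit proteins, -0.80 to 0.0257 for small subunit proteins, -0.46 to -0.34 for initiation factors and -0.31 to -0.0088 for elongation factors. The ribosomal protein median minus the initiation factor median was 0.05 and ran from -0.43 (array 1) to 0.56 (array 2). The members past 2-fold numbered 0 to 4 for GFPhigh and 5 to 11 for GFPlow on a single array, with 3.73% to 4.07% and 4.2% to 5.49% of all genes called. With median centring the 4 class medians were -1.31, -1.44, -1.07 and -1.17, the difference between ribosomal proteins and initiation factors was -0.28, and 2 members were 2-fold higher in GFPlow. With spike-in centring the class medians were -1.09, -1.17, -1.17 and -1.14, and 45 members were 2-fold higher in GFPlow, 34.4% against 19.9% of all genes. That difference was -0.0105 with the mean of all kept probes, so its sign is not settled. Without background correction 0 members (1.85% of all genes), and at 1.5-fold 10 members (7.45% of all genes), were higher in GFPlow. Split by an average log2 signal of 13, a choice made after seeing the data, dim and bright large subunit proteins had medians of -0.43 (n = 14) and -0.28 (n = 34). Median and spike-in centring, which move all genes, aside, the sign of the 35 named members differed from the reported one in 20 of 314 values under alternatives. Many of these values are repeats. The filters often left the same probe, and the mean of kept probes is the reported value where a single probe was kept. The value table derives from the processed signals. The count therefore does not measure how firm the signs are.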
